A study of Arabidopsis thaliana with 6 samples.

Results

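Genes for the synthesis and acetylation of cell wall polysaccharides were compared between root tips of an Arabidopsis thaliana quadruple mutant and of its wild type. The mutant carries athb8-11, cna-2, phb-13 and phv-6, alleles of 4 HD-ZIP III genes, which encode class III transcription factors with a homeodomain and a leucine zipper, and the wild type is Col er-2. The labels name er-2 for the wild type alone, and they do not say whether the mutant also carries it. Both groups were untreated seedlings at 4 days after germination, and a replicate pooled about 200 hand-cut tips of 0.5 mm. Each genotype had 3 Affymetrix ATH1 arrays, described as biological replicates. A gene was a member if its single-gene probe set carried a TBL, IRX, CSL, GAUT or GATL name with a number in the platform's probe table, or in the symbol or synonym column of the TAIR10.1 gene table. That gave 35 genes of the 13355 that could be named on the array.

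The plant wall holds cellulose fibres in a matrix of xylan, mannan, xyloglucan and pectin. TRICHOME BIREFRINGENCE-LIKE (TBL) proteins form a family in which many characterised members are Golgi proteins that transfer acetyl groups to these matrix polymers. CELLULOSE SYNTHASE-LIKE (CSL) proteins build the backbones of matrix polymers, IRREGULAR XYLEM (IRX) genes were named after mutants with collapsed xylem vessels, and GAUT and GATL proteins are galacturonosyltransferases and their relatives. HD-ZIP III factors pattern the root vasculature, where xylem vessels lay down xylan-rich secondary walls.

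The members were 23 TBL genes, 3 IRX genes, 8 CSL genes and 1 GAUT gene. The gene table holds 45 genes with a TBL name, 17 with an IRX name, 30 with a CSL name, 15 with a GAUT name and 10 with a GATL name, and a gene can carry names of more than one family. GATL genes, with 0 members named here, and the other genes without a named probe set were not analysed. The xylan and cellulose genes of secondary walls are therefore thinly covered: the IRX genes measured were IRX10, IRX15 and IRX15-L. Of the members, 16 had a mean log2 signal at or above 5.57, the median of all probe sets, and 19 had a lower one. The table holds no detection calls, so a low signal does not show that a transcript was absent. A probe set's signal also depends on its probes, so signals are compared between genotypes and not between genes.

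The arrays had median log2 signals from 5.56 to 5.59 and correlated pairwise at 0.989 to 0.996. Wild type replicate 1 stood apart, at -28.1 on a first principal component that held 41.4% of the variance, followed by mutant replicate 1 at -11.4, while the other arrays lay between -0.96 and 18.5. PHV, the mutated gene that could be named, had a log2 signal of 4.74 ± 0.16 on mutant arrays and 5.66 ± 0.15 on wild type arrays (SD, n = 3 each), with a limma adjusted p of 0.0639. It was lower on each mutant array, and it is unknown here where its probe set lies relative to the lesion.

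No wall gene of the 35 passed the test in either direction. The test was limma on all 22746 probe sets that are not controls, with Benjamini-Hochberg adjustment over all of them and a threshold of 0.05, which 0.0264% of probe sets passed (6 of 22746; 0.0176% higher and 0.00879% lower in the mutant). The smallest adjusted p of a member was 0.463, that of TBL37. At an unadjusted p under 0.05 there were 2 members, or 5.71%, TBL37 and CSLC4, both lower in the mutant. Of all probe sets 7.47% had such a p, 4.21% with higher and 3.26% with lower mutant signals. With 1 array left out, the count of members ran from 1 (without wild type replicate 1) to 4 (without mutant replicate 1, wild type replicate 2 or wild type replicate 3), which is 2.86% to 11.4% of them, against 4.67% to 8.24% of all probe sets. The genotypes did not overlap in 3 members, or 8.57%, TBL30, TBL37 and CSLC4, all lower in the mutant. Of all probe sets 13.1% did not overlap, 7.55% with higher and 5.57% with lower mutant signals. With both directions together these shares were below the background in this fit of all 6 arrays. Those of the lower direction alone, above it, rest on 2 and 3 genes. Alternative fits of all 6 arrays went both ways. At an unadjusted p under 0.05, the members' share was above the background with the replicate number as a block (11.4%, against 9.39%). It was also above after median centring (5 of 35 members, against 7.39% of all probe sets). With array weights it was below (8.57%, against 9.76%).

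The sizes of the differences were small. The log2 difference, mutant minus wild type, had a median of -0.03 over the members and 0.0076 over all probe sets. It was positive in 15 members (42.9%) and negative in 20 (57.1%), against 52.6% and 47.4% of all probe sets. Its size regardless of sign had a median of 0.11 over the members, against 0.08 over all probe sets. This size was over 0.25 in 5 members, CSLA3, TBL21, TBL37, TBL32 and IRX15-L, all lower in the mutant. The share of all probe sets over 0.25 was not counted, so these 5 cannot be set against a background. The 95% confidence interval held 0 for 33 members. It lay within a 2-fold change either way for 33 members, all but CSLA3 and TBL21, and within a 1.5-fold change for 32, all but these and TBL32. For those 32 genes a larger change of the signal than 1.5-fold lies outside the interval, and for the dim ones the signal may understate a change of the transcript. The standard error of a member's difference was between 0.08 and 0.32.

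**Figure D1:**
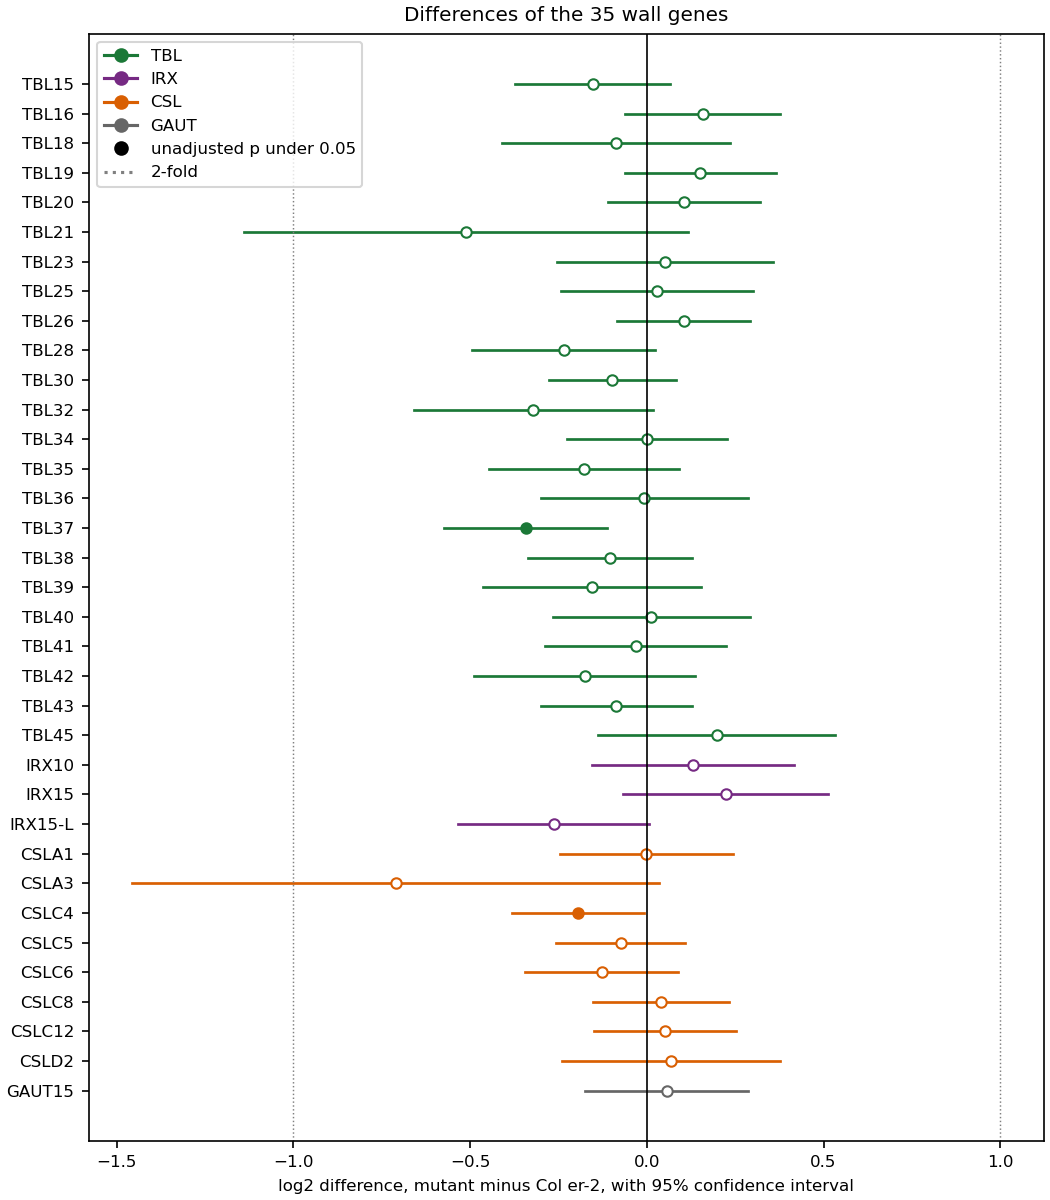
Log2 difference, mutant minus Col er-2, of each of the 35 genes (point) with its 95% confidence interval (line), coloured by family, with filled points for an unadjusted p under 0.05 and dotted lines at a 2-fold change. The intervals of all genes but TBL37 and CSLC4 cross 0, and those of CSLA3 and TBL21 reach past the 2-fold line.

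TBL37 (AT2G34070) had the smallest p of the members. Its log2 signal was 7.83, 7.96 and 7.96 on the mutant arrays, against 8.43, 8.11 and 8.24 on the wild type arrays. Every mutant array lay below every wild type array, and the mutant arrays lay closer together than the wild type ones. The difference was -0.34 (95% confidence interval -0.57 to -0.11), with an unadjusted limma p of 0.00904 and a Benjamini-Hochberg adjusted p of 0.463. With 1 array left out the difference ran from -0.42 (without wild type replicate 2) to -0.26 (without wild type replicate 1, the highest of the 6), and the unadjusted p stayed under 0.05 each time. By order along chromosome 2 in the TAIR10.1 gene table, TBL37 lies 75 protein-coding loci from PHB, one of the mutated genes. Its direct neighbour AT2G34060, which encodes a peroxidase and is no member, had a log2 signal of 7.42 ± 0.20 in mutant tips and 6.46 ± 0.15 in wild type tips (SD, n = 3 each; limma adjusted p = 0.0713), so that the pair differed in opposite directions. Loss of the allele and a chromosome segment inherited with it cannot be told apart in this design. Within 200 loci of a mutated gene there were 3 members, TBL37, TBL38 at 146 loci from PHV and CSLC5 at 144 loci from ATHB8. TBL38 and CSLC5 differed by -0.10 and -0.07, and their genotypes overlapped.

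Of the TBL genes with a known role in xylan acetylation, only TBL28, TBL30, TBL32, TBL34 and TBL35 were members, so the group is covered in part. None of these 5 passed the test, and the median of their log2 differences was -0.18, against -0.09 over all 23 TBL genes measured. TBL32, which acetylates xylose residues that carry glucuronic acid, had log2 signals of 7.35, 7.07 and 7.64 on the mutant arrays, against 7.78, 7.72 and 7.52 on the wild type arrays. Mutant replicate 2 was the lowest array, and mutant replicate 3 lay above wild type replicate 3. Its difference was -0.32 (95% confidence interval -0.66 to 0.02, limma adjusted p = 0.700). With 1 array left out it ran from -0.46 (without mutant replicate 3) to -0.18 (without mutant replicate 2). Its unadjusted p was under 0.05 without either genotype's replicate 3, after median centring and after quantile normalization repeated. The name of the TBL32 probe set ends in _s_at, Affymetrix's mark for probes that match several transcripts, so other transcripts may add to its signal.

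TBL28 had log2 signals of 5.42, 5.03 and 5.12 on the mutant arrays, against 5.37, 5.41 and 5.51 on the wild type arrays. Mutant replicate 1 lay among the wild type arrays and the other mutant arrays below them. The difference was -0.24 (95% confidence interval -0.49 to 0.02, limma adjusted p = 0.722). With 1 array left out it ran from -0.35 (without mutant replicate 1) to -0.16 (without mutant replicate 2). Its unadjusted p was under 0.05 in the first of these, after median centring and with array weights. TBL30, the direct neighbour of TBL28 on chromosome 2, had 4.32, 4.35 and 4.22 on the mutant arrays, against 4.43, 4.39 and 4.36 on the wild type arrays. These groups did not overlap, but the gap between them was narrow and the signal dim, and the difference of -0.10 had a limma adjusted p of 0.844. TBL35 averaged 8.52 ± 0.21 in mutant tips and 8.70 ± 0.10 in wild type tips (SD, n = 3 each), with mutant replicate 2 the lowest array. Its difference of -0.18 (95% confidence interval -0.45 to 0.09) was -0.06 without that array and -0.26 without mutant replicate 3. TBL34, also dim, differed by 0.00013.

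TBL23, TBL25 and TBL26 belong to the TBL genes known for mannan acetylation. Their log2 differences were 0.05, 0.03 and 0.10, and in each the genotypes overlapped. TBL23 and TBL25 turned sign when single arrays were left out, so no direction can be given for them. The widest of their intervals was that of TBL23, -0.25 to 0.36.

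For the other TBL genes no substrate is assigned here. TBL39 (AT2G42570) averaged 10.17 ± 0.02 log2 signal in mutant tips and 10.33 ± 0.28 in wild type tips (SD, n = 3 each), and its difference of -0.16 was smaller than the spread of the wild type arrays. That difference was -0.02 without wild type replicate 1 and -0.30 without wild type replicate 3, where its unadjusted p was under 0.05. TBL21 had log2 signals of 4.55, 4.67 and 4.42 on the mutant arrays, against 5.79, 4.60 and 4.80 on the wild type arrays. Wild type replicate 1 alone stood far above the rest, and the genotypes overlapped without it too. The difference was -0.51 (95% confidence interval -1.14 to 0.12, limma adjusted p = 0.748), and it was -0.15 without that array and -0.75 without wild type replicate 2. Its unadjusted p was under 0.05 in the latter fit and with the replicate number as a block. TBL19, its direct neighbour on chromosome 5, had 4.64 ± 0.14 in mutant tips and 4.48 ± 0.04 in wild type tips (SD, n = 3 each), with no raised signal on wild type replicate 1. TBL45 had the highest difference of the TBL genes, 0.20 (95% confidence interval -0.14 to 0.53), which was 0.05 without mutant replicate 2 and 0.29 without mutant replicate 1. The remaining TBL genes, TBL15, TBL16, TBL18, TBL20, TBL36, TBL40, TBL41, TBL42 and TBL43, differed by -0.18 (TBL42) to 0.16 (TBL16), with a smallest limma adjusted p of 0.784. The unadjusted p of TBL18 was under 0.05 without mutant replicate 3, at a difference of -0.25. That of TBL42 was under 0.05 without mutant replicate 2, at -0.30. TBL40 was the one member with a second probe set, and the 2 sets differed by 0.01 and 0.02.

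**Figure D2:**
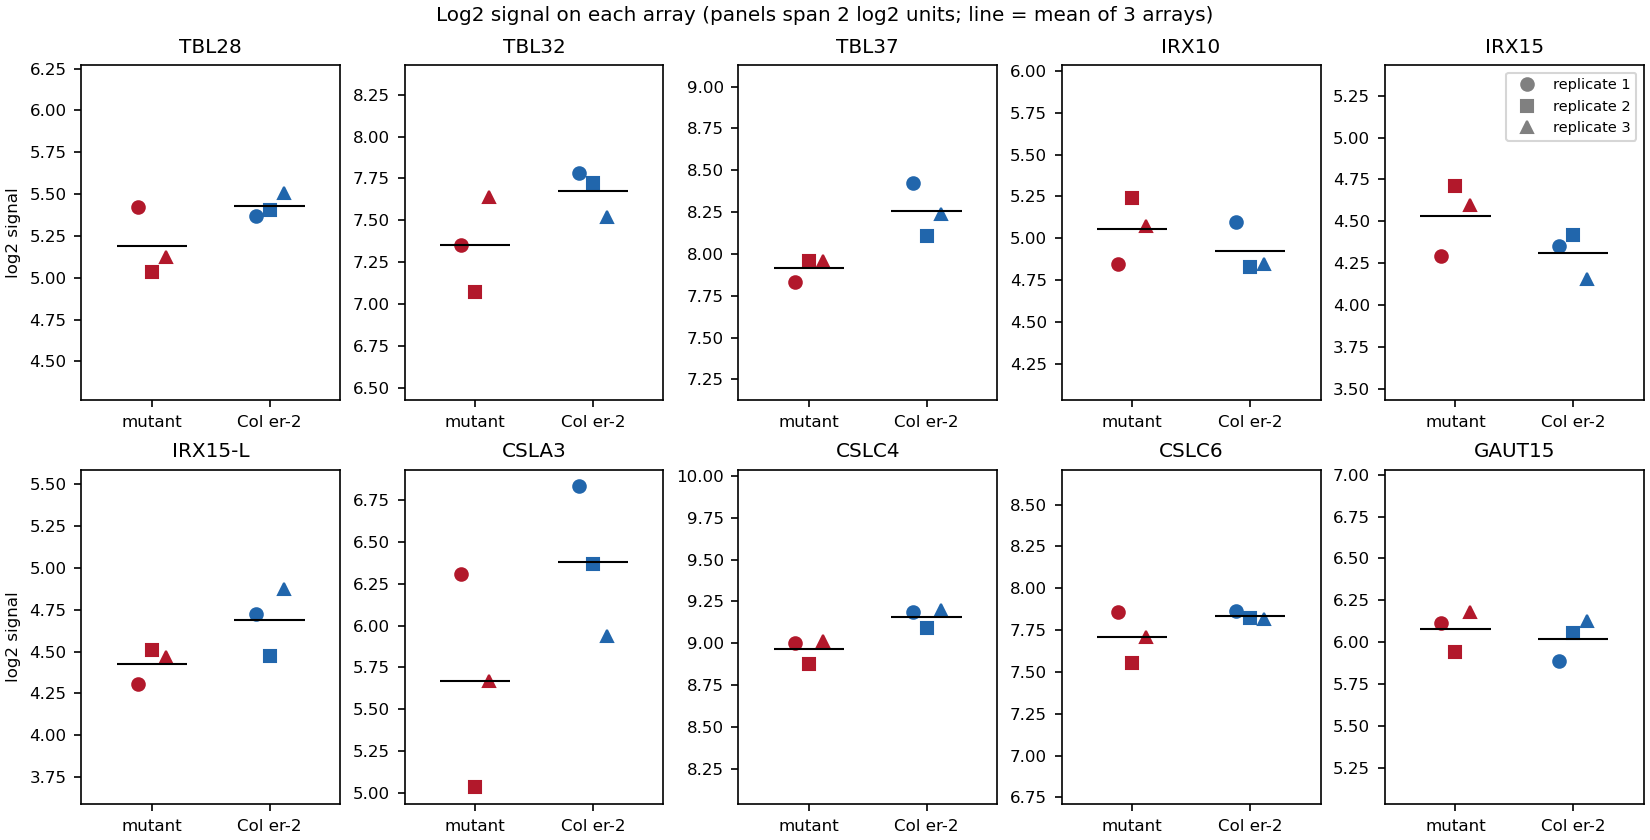
Log2 signal on each array for 10 genes, up to 3 per family with the smallest p, with mutant arrays in red left of Col er-2 arrays in blue, symbols for the replicate number, and a line at the mean of 3 arrays. TBL37 and CSLC4 have no overlap between genotypes, while CSLA3 spreads from 5.03 to 6.83.

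The 3 IRX genes act in xylan synthesis, and 0 of them passed the test, with differences of both signs. IRX10 encodes a xylosyltransferase of the xylan backbone, and IRX15 and IRX15-L encode a pair of related proteins that act redundantly in xylan synthesis. IRX15 had log2 signals of 4.29, 4.71 and 4.60 on the mutant arrays, against 4.35, 4.42 and 4.15 on the wild type arrays. Mutant replicate 1 lay among the wild type arrays and the other mutant arrays above them. Its difference was 0.22 (95% confidence interval -0.07 to 0.51, limma adjusted p = 0.766). It was 0.13 without mutant replicate 2 and 0.34 without mutant replicate 1, where its unadjusted p was under 0.05.

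IRX15-L had 4.30, 4.51 and 4.47 on the mutant arrays, against 4.73, 4.47 and 4.87 on the wild type arrays. Wild type replicate 2 lay within the mutant range and the other wild type arrays above it. The difference was -0.26 (95% confidence interval -0.53 to 0.0053, limma adjusted p = 0.686), opposite in sign to that of IRX15. It was -0.17 without wild type replicate 3 and -0.37 without wild type replicate 2. Its unadjusted p was under 0.05 in the latter fit, with the replicate block and with trend and robust options. That p was also under 0.05 after median centring and after quantile normalization repeated. IRX10 had 4.84, 5.24 and 5.08 on the mutant arrays, against 5.10, 4.83 and 4.85 on the wild type arrays, with overlap. Its difference of 0.13 (limma adjusted p = 0.873) was 0.04 without mutant replicate 2 and 0.24 without mutant replicate 1. All 3 had mean signals below the median of all probe sets. In whole pieces of tissue, fewer cells of a type and less RNA per cell cannot be told apart, and xylem is a small share of the root tip.

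The CSLC proteins synthesise the glucan backbone of xyloglucan, and CSLC4, CSLC5, CSLC6, CSLC8 and CSLC12 were measured. CSLC4 (AT3G28180) had log2 signals of 9.00, 8.88 and 9.01 on the mutant arrays, against 9.19, 9.09 and 9.20 on the wild type arrays. Every mutant array lay below every wild type array, with a similar spread in both genotypes. The difference was -0.20 (95% confidence interval -0.38 to -0.0091), with an unadjusted limma p of 0.0419 and an adjusted p of 0.649, and it ran from -0.23 to -0.15 with 1 array left out. The unadjusted p stayed under 0.05 in 1 of those 6 fits, that without wild type replicate 2. It was not under 0.05 with the replicate number as a block or with array weights. It was under 0.05 with dim probe sets left out, with trend and robust options, after median centring and after quantile normalization repeated.

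CSLC6 had 7.86, 7.55 and 7.71 on the mutant arrays, against 7.87, 7.82 and 7.82 on the wild type arrays. Wild type arrays lay close together, and mutant replicate 1 lay among them. Its difference was -0.13 (95% confidence interval -0.35 to 0.09), which was -0.05 without mutant replicate 2 and -0.20 without mutant replicate 1. CSLC5 averaged 7.85 ± 0.02 in mutant tips and 7.93 ± 0.08 in wild type tips (SD, n = 3 each), a difference of -0.07. CSLC8 and CSLC12, both below the median of all probe sets, differed by 0.04 and 0.05, and both turned sign with 1 array left out. Over the 5 CSLC genes the median difference was -0.07, with 2 positive and 3 negative, 0 past the threshold and intervals that all lay within 1.5-fold.

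CSLA proteins are mannan and glucomannan synthases, and CSLA3 had the largest standard error of all members. Its log2 signal was 6.31, 5.03 and 5.67 on the mutant arrays, against 6.83, 6.37 and 5.94 on the wild type arrays. Mutant replicate 1 lay within the wild type range, and the lowest wild type array lay below it. The difference was -0.71 (95% confidence interval -1.46 to 0.03, limma adjusted p = 0.696), which is the largest size among the members and also the least precise. With 1 array left out it ran from -1.03 (without mutant replicate 1) to -0.39 (without mutant replicate 2). It was -0.93 without wild type replicate 3 and -0.49 without wild type replicate 1. Its unadjusted p was under 0.05 without mutant replicate 1 or wild type replicate 3, with the replicate block, with array weights and after quantile normalization repeated. CSLA1, at a dim 4.07 ± 0.10 in mutant tips and 4.07 ± 0.17 in wild type tips (SD, n = 3 each), differed by -0.0021.

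CSLD2, which acts in root hair growth, averaged 8.25 ± 0.15 in mutant tips and 8.18 ± 0.24 in wild type tips (SD, n = 3 each). Its difference of 0.07 turned to -0.04 without wild type replicate 3 and was 0.20 without wild type replicate 1. The root hair markers EXPA7 and EXPA18, the 2 of 8 in that list that could be named, differed by -0.17 and -0.11 and had mean signals below the median of all probe sets. Their summed signal on the linear scale was 42.8 to 44.2 on mutant arrays and 42.3 to 52.3 on wild type arrays. Its part in the CSLD2 value was not tested. GAUT15, of the family of the pectin synthase GAUT1, had log2 signals of 6.11, 5.94 and 6.18 on the mutant arrays, against 5.88, 6.05 and 6.12 on the wild type arrays. The genotypes overlapped, and the difference was 0.06 (95% confidence interval -0.17 to 0.29), which ran from -0.01 (wild type replicate 1 left out) to 0.12 (mutant replicate 2 left out).

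**Figure D3:**
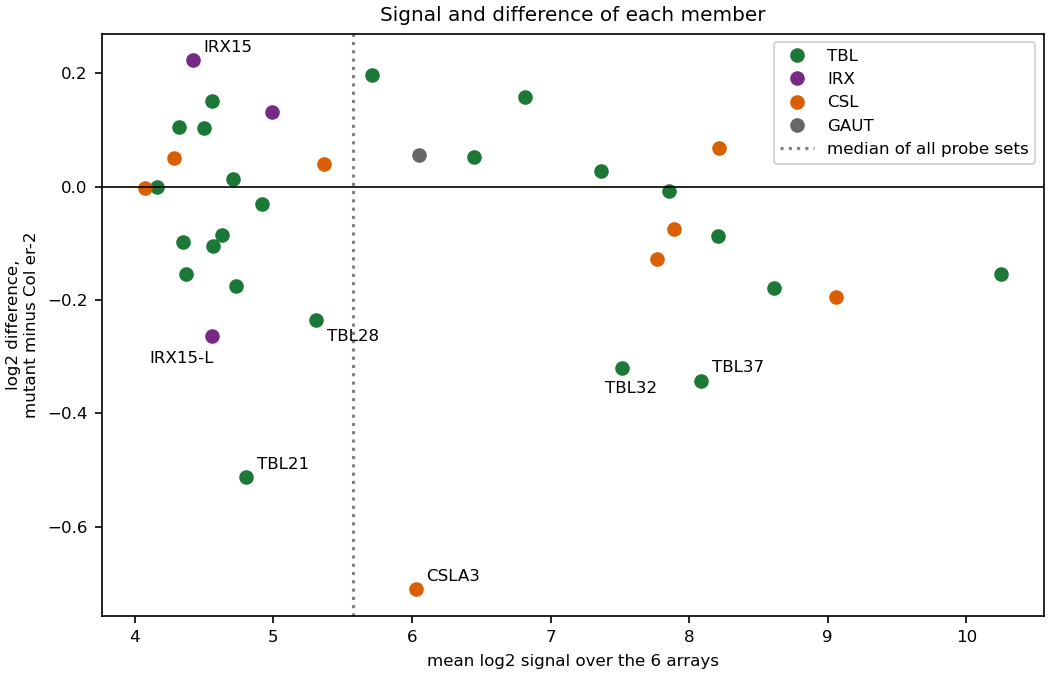
Mean log2 signal over the 6 arrays (horizontal) and log2 difference, mutant minus Col er-2 (vertical), of each member, coloured by family, with a dotted line at 5.57, the median of all probe sets. Genes lie on both sides of 0 at low and high signal, and the labelled genes are those with a difference of over 0.22 in size.

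Which array was highest or lowest varied among the members. Wild type replicate 1 was the highest array for 9 of 35 members (25.7%), against 15.9% of all probe sets, and the lowest for 7 (20.0%), against 25.2%. Mutant replicate 2 was the highest for 10 members (28.6%, against 23.2% of all probe sets) and the lowest for 8 (22.9%, against 11.8%). Mutant replicate 1 was the highest for 1 member, TBL34 (2.86%, against 11.5% of all probe sets). The median within-group SD was 0.14 in mutant tips and 0.11 in wild type tips over the members, and 0.11 and 0.12 over all probe sets. In 23 members no alternative fit turned the sign of the difference. With 1 array left out, CSLA3, CSLC4, CSLC6, IRX10, IRX15, TBL19, TBL20, TBL28, TBL32, TBL35 and TBL45 were nearest 0 without mutant replicate 2. TBL21, TBL26, TBL37, TBL38 and TBL39 were nearest 0 without wild type replicate 1, and the rest of the 23 without another array.

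**Figure D4:**
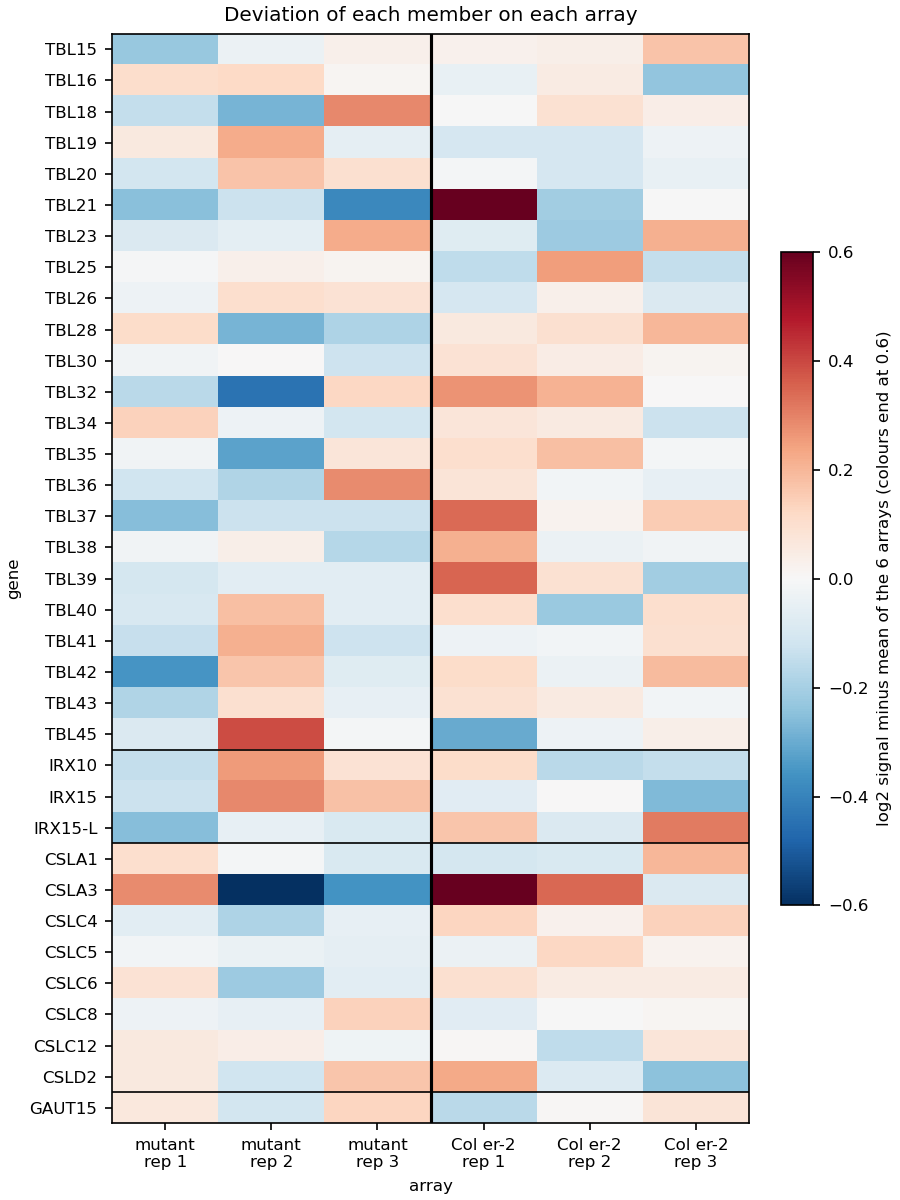
Log2 signal of each member on each array minus its mean over the 6 arrays, with red above and blue below that mean and colours that end at 0.6 either way, mutant arrays on the left and Col er-2 arrays on the right. No family has one colour throughout a genotype, and the deepest colours are those of CSLA3 and of TBL21 on wild type replicate 1.

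Other wall genes were read from 8 lists of cellulose, xylan, xyloglucan, pectin, nucleotide sugar, mannan, lignin and secondary wall regulator genes with 166 entries. Of these, 5 could be named on the array outside the members, 0 of 5 passed the limma test at an adjusted p under 0.05 and 0 had an unadjusted p under 0.05. COB, a GPI-anchored protein that orients cellulose deposition, averaged 9.70 ± 0.09 in mutant tips and 9.74 ± 0.20 in wild type tips (SD, n = 3 each). KOR3, an endoglucanase, differed by -0.07, GER2, of GDP-fucose synthesis, by -0.04, and HCT and PRX72, of lignin synthesis, by -0.12 and -0.02. In 5 lists no gene could be named, the secondary wall regulators among them.

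Markers of other cell types were as sparse, with 9 of 50 named and 0 of the 9 xylem markers. None of the 9 passed the limma test and 0 had an unadjusted p under 0.05. Among them EXPA7 and RCA, a gene of green tissue, had lower signals on every mutant array, 2 of 9 markers, while 13.1% of all probe sets had no overlap, 5.57% with lower mutant signals. The summed linear signal of RCA and LHCB4.1, the 2 of 5 green tissue markers named, was 72.9 to 85.2 on mutant arrays and 77.2 to 118 on wild type arrays. Its part in the wall gene values was not tested. JKD, ACR4 and AGL42, markers of ground tissue, root cap and quiescent centre, differed by -0.14, 0.08 and 0.06. OPS of the phloem and ZAT10, which responds to handling, differed by 0.19 and -0.09.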

How the data were processed

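The table the authors deposited holds log2 signals of 22810 probe sets on 6 arrays. Per the submitters' processing notes, Affymetrix Expression Console, RMA and limma were used, with no version or role, and that these are RMA values follows from those names and from their range. RMA normalizes by quantiles, so that a shift shared by most genes would be hidden, and it compresses differences of dim probe sets. No genome build is given in the sources used here, and the gene table was used for names and gene order alone.

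Leaving out 64 controls, 22746 probe sets were fitted for the difference between mutant and wild type with limma 3.58.1 (lmFit, eBayes) in R 4.3.3, with Benjamini-Hochberg adjustment over all. The fit was tested on simulated data. A single gene was named for 13513 probe sets, several for 503 and none for 8730. One probe set, that with the highest mean, stood for a gene, and IRX15-L was counted as an IRX name. Depth is not defined for arrays, and 3 arrays per genotype limit the precision.

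The members, lists, functional groups and tests were chosen with earlier results of these data known. Given on every array were the 3 members of a family with the smallest p, with group means those with the 2 highest mean signals, all CSLA, CSLD and IRX members, and in each list the genes with the smallest p and the highest mean. TBL21, TBL30 and other members named beyond this, and AT2G34060, were chosen after their values were seen. Alternative fits left out single arrays or dim probe sets, took the replicate number as a block, or used trend and robust options, median centring, array weights, the mean of all probe sets of a gene, or a threshold of 0.1. Quantile normalization repeated was added after the data were seen.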

Additional observations from a re-analysis of the deposited data

How the results depend on the processing

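Under all 13 alternative fits and at an adjusted p under 0.1, the number of members past the limma threshold was 0. All probe sets gave 1 to 109 calls in these fits, and the 109 came with the replicate block, against 6 without it. The count at an unadjusted p under 0.05, 2 with all arrays, was 1 to 4 with 1 array left out (1 without wild type replicate 1, 4 without mutant replicate 1, wild type replicate 2 or wild type replicate 3), 4 with the replicate block, and 5 after median centring and after quantile normalization repeated. These were 11.4% of members with the block, against 9.39% of all probe sets. In the other 2, 7.39% and 7.80% of all probe sets had such a p, while the members' count was 5 of 35. The members' share was thus above that of all probe sets with the block and in the other 2. Every member counted there was lower in the mutant. The share of all probe sets in that direction was not counted in these fits, so this has no background beside it. Median centring also lowered every difference by the same amount, with a median over all probe sets of -0.017, against 0.0076 without it. With trend and robust options the members' share was 8.57%, against 7.31%, and with array weights 8.57%, against 9.76%. With dim probe sets left out it was 12.5% of 16 members, against 10.3%. TBL37 was among the members counted each time. The count of members whose genotypes did not overlap, 3 with all arrays, was 5 after median centring (of 35, beside 13.3% of all probe sets), 6 after quantile normalization repeated (17.1%, against 13.6%), and 5 to 10 with 1 array left out (at most 28.6%, against 19.4% to 24.9% of all probe sets), where fewer arrays overlap less by construction. The median difference of all members, -0.031, was -0.081 with dim probe sets left out, which kept 16 members, and -0.063 to -0.039 with 1 array left out. That of the TBL genes, -0.086, was -0.088 to -0.039 with 1 array left out and -0.047 with dim probe sets left out. That of the CSL genes, -0.038, was -0.083 to -0.024 with 1 array left out and -0.13 with dim probe sets left out. IRX genes gave no value in that setting, since all 3 are dim.

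The replicate block, the trend and robust options and leaving out dim probe sets repeat a member's difference by construction, so its sign could not turn. The mean of all probe sets of a gene changed TBL40 alone. These fits are included in the 436 recomputed differences of single members. Of the 436, 406 kept their direction and 30, in 12 genes with a difference of at most 0.09 in size, turned sign. With 1 array left out these ran from -0.25 to 0.029 (TBL18), -0.046 to 0.17 (TBL23), -0.040 to 0.16 (TBL25), -0.070 to 0.054 (TBL34), -0.15 to 0.080 (TBL36), -0.096 to 0.067 (TBL40), -0.15 to 0.031 (TBL41), -0.055 to 0.096 (CSLA1), -0.019 to 0.074 (CSLC8), -0.013 to 0.099 (CSLC12), -0.038 to 0.20 (CSLD2) and -0.012 to 0.12 (GAUT15). With array weights TBL18 was at 0.011, TBL25 at -0.063, TBL34 at -0.055, TBL36 at 0.096 and CSLA1 at 0.0044. After median centring TBL34 was at -0.025 and TBL40 at -0.012, and after quantile normalization repeated CSLA1 was at 0.016. The cause was not tested. The replicate numbers do not establish pairs: deviations of same-numbered arrays correlated at 0.504, 0.07 and 0.176, and not every array correlated best with its own number. Low signal limits the 19 members below the median of all probe sets.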
